A study of Homo sapiens with 7 samples.

Results

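Keratin and keratin-associated protein genes were described here in HepG2, a human liver cancer cell line. They were found as the rows of the deposited expression table whose gene symbol was KRT or KRTAP followed by digits, and they made up 147 of 30032 loci. Of these, 61 carried a KRT symbol and 86 a KRTAP symbol. The study held 7 samples, 1 per assay, all from untreated HepG2 cultures: ChIP-Seq on crosslinked chromatin for 3 active marks (H3K27ac, H3K9ac, H3K4me3) and 2 repressive ones (H3K9me3, H3K27me3), a nucleosome map by micrococcal nuclease digestion of native chromatin, and RNA-Seq. No assay had a replicate sample, so every comparison below is a description without a test. HepG2 is a transformed line kept in culture, and it stands for no other liver cell.

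Keratins are the intermediate filament proteins of epithelial cells. A type I keratin always pairs with a type II keratin to build a filament, and each epithelium uses its own pairs: KRT8 with KRT18 in simple epithelia such as liver parenchyma, KRT19 as an added type I partner in ducts, KRT5 with KRT14 in basal epidermis, KRT1 with KRT10 in its upper layers, and a separate set in hair. Keratin-associated proteins (KRTAPs) form the matrix between the filaments of the hair shaft and are encoded by small genes that lie in a few dense clusters. H3K4me3, H3K9ac and H3K27ac are marks of active promoters and, for H3K27ac, of enhancers. H3K27me3 is the mark of Polycomb repression, and H3K9me3 that of heterochromatin.

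Expression was given as FPKM (fragments counted on a transcript, scaled by its length and by library size), in 2 columns that were read as runs of the 1 RNA-Seq sample, which the labels do not state. The level of a locus is the mean of both runs. A locus is called expressed from an FPKM of 1, and silent under 0.1. An activation mark is any of H3K4me3, H3K9ac and H3K27ac, a trivalent nucleosome carries those 3 and neither of the other marks, and a mark is called near a locus when it lies on a nucleosome position inside the locus or within 10 kb of either end. Percentages in brackets give the same share over 22113 named loci. The deposited tables give no number of reads behind an FPKM or a peak, and the intervals given below cover counting error only.

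The liver identity of the line was plain in the same table, where all 6 hepatocyte marker genes were expressed, between an FPKM of 56.6 for FGB, a fibrinogen chain, and 10011 for ALB, serum albumin. Of 5 fibroblast markers only COL1A2 reached the limit, at 1.16. The 5 lists held between 26271 peaks (H3K27me3) and 95886 peaks (H3K27ac), and each peak fell on 1 of 14217405 nucleosome positions. Every share given here rests on these deposited lists, in which 1.43% of positions carried a mark, and a list called less strictly would leave fewer loci without one. The paper reports histone modification at a larger share of nucleosomes than these lists hold.

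Sequences just before the start sites of 5 genes are shown first. They were chosen to set the most abundant keratin (KRT8), the shared KRT10 locus, the 1 expressed KRTAP gene (KRTAP3-1), a silent hair keratin (KRT31) and a silent gene of the chromosome 21 KRTAP cluster (KRTAP8-1) side by side. Each line gives the 100 bases that end just before the RefSeq start (GRCh38.p14), 5′ to 3′ on the gene's strand, and capitals mark TATAAA. All 5 genes are on the minus strand, KRT8 at chr12:52926470-52926569, KRT10 at chr17:40822615-40822714, KRTAP3-1 at chr17:41009129-41009228, KRT31 at chr17:41397609-41397708 and KRTAP8-1 at chr21:30813275-30813374.
KRT8: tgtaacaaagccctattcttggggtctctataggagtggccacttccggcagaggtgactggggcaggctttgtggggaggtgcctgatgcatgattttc
KRT10: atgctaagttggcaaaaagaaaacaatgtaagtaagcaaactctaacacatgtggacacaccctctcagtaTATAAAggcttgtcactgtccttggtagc
KRTAP3-1: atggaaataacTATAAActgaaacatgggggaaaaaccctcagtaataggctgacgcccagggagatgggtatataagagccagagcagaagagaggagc
KRT31: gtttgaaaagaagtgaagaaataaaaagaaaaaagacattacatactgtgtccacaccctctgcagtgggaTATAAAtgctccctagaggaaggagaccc
KRTAP8-1: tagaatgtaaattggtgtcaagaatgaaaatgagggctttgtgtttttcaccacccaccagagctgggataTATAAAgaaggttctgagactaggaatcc

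In KRT10, KRT31 and KRTAP8-1 the TATAAA began 29 bases before the start. The KRT8 window held none of these letters, and in KRTAP3-1 they lay farther upstream. A near match, tatataag, stands closer to the KRTAP3-1 start and was not counted because its letters differ. The KRT8 bases precede the RefSeq start alone. Whether HepG2 uses that start was not tested, and most trivalent nucleosomes of KRT8 lay at an internal stretch described below.

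The RefSeq promoter table held 111 entries for 107 of the member symbols, each with 250 bases before the start and 50 after. KRT18, KRT19, KRT23, KRT7, KRT80, KRT15 and KRT17 had no entry, and 108 of the 111 entries belonged to silent loci. The shares below therefore describe silent loci and say little about the expressed keratins. TATAAA was found on either strand in 78 of them, or 70.3%, against 11.5% of all 35116 promoters in the table. Counted only on the gene's strand and only where it began 40 to 20 bases before the start, it was found in 48 member promoters (43.2%) and in 2.30% of all promoters. KRT promoters held it in that place in 16 of 38 entries, and KRTAP promoters in 32 of 73. GGGCGG, the GC box, was found on either strand in 7 member promoters (6.31%) and in 45.0% of all. CCAAT was found in 47 (42.3%) and in 34.6% of all. TGANTCA, with N for any base, was found in 6 (5.41%) and in 7.71% of all. The member promoters had a median of 2 CpG dinucleotides in the 300 bases and at most 13, where all promoters had a median of 14. Their median GC content was 43.7%, against 58.7% over the table. Because KRTAP genes arose by local duplication, neighbouring entries share much of their sequence and are not separate observations.

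**Figure D1:**
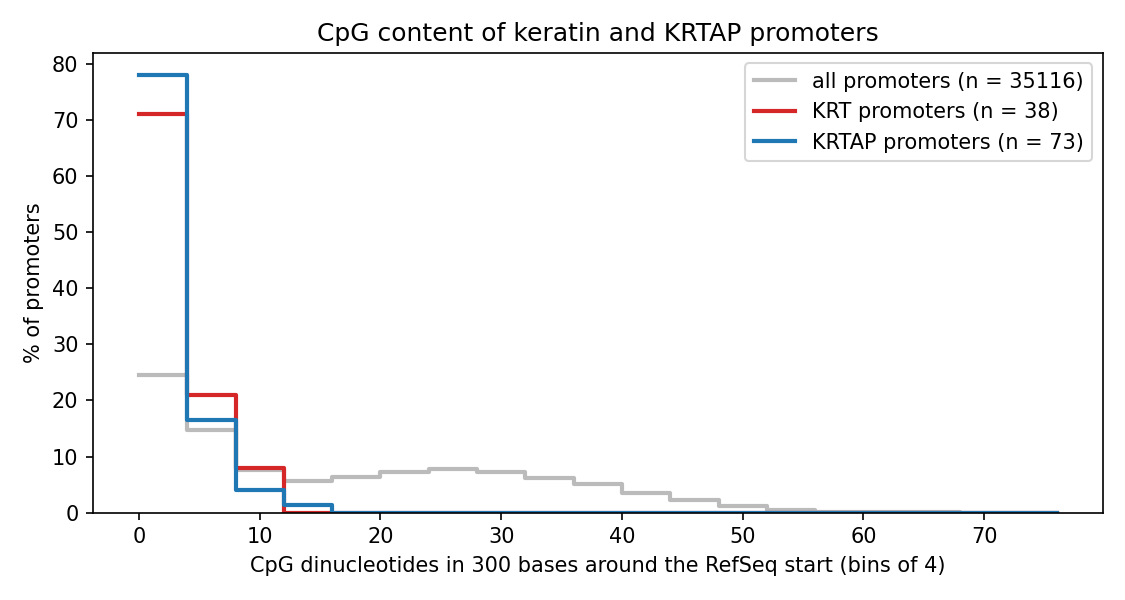
Number of CpG dinucleotides in the 300 bases around the RefSeq start, in bins of 4 (x axis), against the percentage of promoters in each bin (y axis), for all 35116 promoters, 38 KRT promoters and 73 KRTAP promoters. No keratin or KRTAP promoter with an entry held more than 13 CpG, while the curve of all promoters runs far to the right of that. KRT18, KRT19 and KRT23 had no entry and are not shown.

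Transcript levels were concentrated in very few of the 147 loci. Only 6 (4.08%, exact 95% interval 1.51 to 8.67) were expressed, against 51.3% of named loci. The silent ones numbered 134, or 91.2% (36.6% of named loci), and 124 were listed at 0 in both runs, or 84.4% (22.2% of named loci). Of the 23 loci above 0 in at least 1 run, 16 were above 0 in both.

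KRT8, the type II keratin of simple epithelia, had the highest level, at an FPKM of 400.4 (run 1) and 381 (run 2). The mean of 391 ranked 170 among the named loci. KRT18, its type I partner, followed with 241 and 243 (rank 262). KRT19, the type I keratin of ductal epithelia, had 113 and 106 (rank 654). These 3 genes held 51.1%, 31.6% and 14.3% of the summed FPKM of all keratin and KRTAP loci, 97.0% together. KRT8, KRT18 and KRT19 have many processed pseudogenes of near-identical sequence, so reads may have been divided between copies and their levels are uncertain to that extent.

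KRT23, a type I keratin of simple epithelia, had an FPKM of 8.38 and 9.79. KRT10, the type I keratin of differentiating epidermis, had 9.98 and 9.86, but its row shares its coordinates with TMEM99 (FPKM 14.6). KRTAP3-1, a hair matrix gene, had 1.64 and 1.46. The runs of each of the 6 expressed loci differed by little, with run 2 at 0.890 to 1.17 of run 1. No source says whether they came from separate cultures, so their difference is not taken as a measure of biological spread.

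KRT8 exceeded KRT18 by a ratio of 1.66 in run 1 and 1.57 in run 2. When FPKM was summed over all type I symbols (30 loci) and all type II symbols (26 loci), the sums were much nearer. Type I genes came to 373 and 369 in the 2 runs, and type II genes to 401 and 382. The type II sum was 1.07 and 1.04 of the type I sum. KRT8 made up nearly all of the type II sum, while KRT18 and KRT19 together made up most of the type I sum. This ratio was worked out after the single levels had been seen.

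Between the limits lay 7 loci, all at levels far under those of KRT8. KRT80, a type II keratin of differentiating epithelia, had 0.456 and 0.501. KRT15, a basal-cell type I keratin, had 0.207 and 0.228. KRT81, a hair cortex keratin, had 0.255 and 0.142, and KRT17, a type I keratin of appendages and wounded skin, had 0.112 and 0.111. KRT7, the type II keratin usual in ductal and glandular epithelia, had 0.0920 and 0.126, KRT42P, a pseudogene, 0.117 and 0.165, and a joint row of KRTAP5-1 and KRTAP5-2 0.748 and 0.298. KRT20, the type I keratin of gut and urothelium, fell into the silent range with 0.0420 in run 1 and 0 in run 2.

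By class, 4 of 8 loci of simple epithelial keratins were expressed, a share near that of named loci (51.3%). Among the 8 is a second KRT23 row, listed at 0 in both runs. For the classes below, 22.2% of named loci were at 0 in both runs. Of 21 epidermal and stratified keratins only KRT10 was expressed, and 16 were at 0 in both runs. None of the 18 hair shaft loci was expressed, and 13 were at 0 in both runs. Of these, KRT81 and KRT37, both hair keratins, had the highest means, 0.199 and 0.0718. All 9 inner root sheath keratins were listed at 0 in both runs. Of 86 KRTAP loci, 81 were at 0 in both runs, and the few reads of the rest never exceeded an FPKM of 0.119 in a run, except for KRTAP3-1 and the joint KRTAP5-1 and KRTAP5-2 row.

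**Figure D2:**
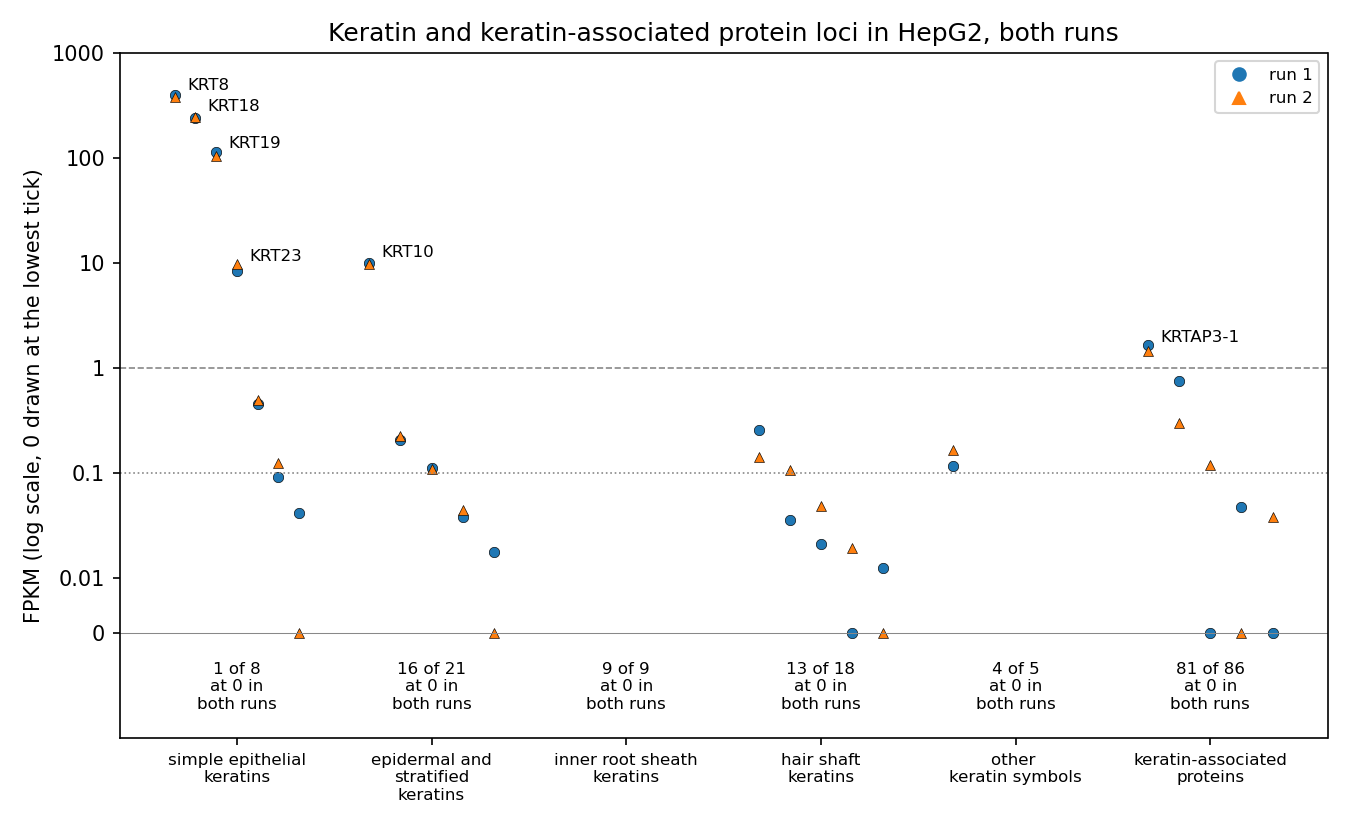
FPKM of each locus above 0 in at least 1 run (y axis, log scale, with 0 drawn at the lowest tick) by keratin class (x axis), circles for run 1 and triangles for run 2, with the limits of 1 (dashed) and 0.1 (dotted). KRT8, KRT18 and KRT19 stand above 100, and the text under each class gives the number at 0 in both runs.

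Genes that keratins work with were not all low. Of 18 desmosome and plakin genes, which anchor keratin filaments, 12 were expressed and 5 silent, led by DSP (desmoplakin) at an FPKM of 42.7 and DSG2 (desmoglein 2) at 26.97. Of 16 other intermediate filament genes, 6 were expressed, with the lamin genes LMNA (90.8) and LMNB2 (59.1) highest, and 7 were silent. Of 14 genes of the cornified envelope, the protein shell of the outer epidermis, 11 were silent, 8 of them listed at 0, and the 1 expressed gene was TGM1, a transglutaminase, at 41.3. None of 8 regulators of keratinocyte identity was expressed. KLF4 was highest at 0.189, and TP63, the master regulator of stratified epithelium, was listed at 0.

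Activation marks were near fewer keratin loci than loci at large. An activation mark lay near 40 of 147 loci, or 27.2% (78.4% of named loci), and trivalent nucleosomes near 27, or 18.4% (63.2%). H3K4me3 was near 30 loci (73.7% of named loci), H3K9ac near 35 (73.7%) and H3K27ac near 36 (67.9%). Counted by row, the repressive marks were near much the same share of keratin loci as of all loci, 45 or 30.6% for H3K27me3 (31.2%) and 48 or 32.7% for H3K9me3 (31.9%). Rows that share coordinates repeat the same window. They made up 22 of the 40 loci with an activation mark, 21 of the 45 with H3K27me3 and 18 of the 48 with H3K9me3. Of the 123 keratin loci with their own coordinates, 24 had H3K27me3 and 30 H3K9me3 nearby. No mark at all was near 60 loci, or 40.8% (9.99%). Keratin loci were short, with a median length of 4.21 kb against 36.6 kb for named loci, so their windows held a median of 132 nucleosome positions against 284.

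To compare windows of equal length, marks were counted within 10 kb of the listed transcription start site (TSS) alone, for the 122 loci with 1 strand and coordinates of their own. There 15 (12.3%) had an activation mark, against 63.7% of 14031 named loci of that kind, and 4 had a trivalent nucleosome (47.4%). H3K4me3 was near 7 (59.5%), H3K9ac near 10 (57.7%) and H3K27ac near 12 (51.0%). H3K27me3 was near 21 (17.2%, against 18.3%) and H3K9me3 near 29 (23.8%, against 10.3%). No mark was near 65, or 53.3% (22.4%).

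Silent keratin loci were also set beside the silent loci of the whole table. Around the whole locus, 32 of 134 had an activation mark (47.2% of 8099 silent named loci), 22 a trivalent nucleosome (21.3%), 28 H3K27ac (27.9%), 41 H3K27me3 (44.3%) and 48 H3K9me3 (35.6%). Most of the first 3 counts were KRTAP5 and KRTAP10/12 rows that share a window with active genes. Among the 112 with their own coordinates, 12 had an activation mark (36.7% of 5920 such silent named loci), 2 a trivalent nucleosome (10.4%), 8 H3K27ac (17.0%), 21 H3K27me3 (42.3%) and 30 H3K9me3 (30.6%). Within 10 kb of the TSS, 9 of 111 silent keratin loci, or 8.11% (exact 95% interval 3.77 to 14.8), had an activation mark, against 25.6% of 5919 silent named loci. A trivalent nucleosome was near 1 (6.20%) and H3K27me3 near 18, or 16.2% (9.90 to 24.4, against 29.1%). H3K9me3 was near 29, or 26.1% (18.2 to 35.3, against 14.4%), and 62 loci, or 55.9%, had no mark (45.5%). The H3K9me3 count rested on 1 cluster, since 21 of the 33 silent loci of the chromosome 21 KRTAP cluster had the mark but only 8 of the other 78, or 10.3% (4.53 to 19.2). Outside that cluster H3K27me3 was near 18 of 78, or 23.1%, and an activation mark near 9, or 11.5%. These windows overlap between neighbours, so the loci are not independent and the intervals are too narrow. The median distance from a silent keratin locus with its own coordinates to the nearest activation mark was 137 kb, against 26.0 kb for silent named loci with theirs. With shared rows the medians were 80.4 kb and 13.1 kb. The 33 loci of the chromosome 21 KRTAP cluster all lay 621 to 1085 kb from an activation mark, which raises both keratin medians. Medians without that cluster were not worked out.

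The expressed loci had a median of 3 trivalent nucleosomes nearby, with 8 at KRT8, 5 at KRT18, 4 at KRT10, 2 at KRT23 and none at KRT19 and KRTAP3-1. Over all 11354 expressed loci the median was 5, and 94.9% had at least 1. H3K9me3 was found at 0 of 1034 positions near the 6 loci, which allows a share of up to 0.290% (3 counts, with an exact upper limit of 0.356%), and H3K27me3 at 1, near KRTAP3-1. Of the 5 with their own coordinates, an activation mark lay up to 2 kb from the TSS in all 5 (93.4% of such expressed loci), 4 had H3K4me3 (92.0%) and 3 a trivalent nucleosome (84.3%).

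The most abundant gene, KRT8, runs from 53290969 to 53320296 on chromosome 12 (hg19, minus strand), and 25 marked positions lay in or near it. One stretch of 12 marked nucleosomes, at chr12:53318614-53321641, spanned the listed TSS, where H3K27ac was the most frequent mark with 9 positions, 5 of them carrying it alone, and a single position was trivalent. A second stretch at chr12:53297037-53299256, with 9 marked nucleosomes, lay 21.1 to 23.2 kb inside the gene. There 9 carried H3K4me3, 7 H3K9ac and 8 H3K27ac, and 7 were trivalent. The nucleosomes that had all 3 activation marks were thus mostly at the internal stretch and not at the listed TSS. No transcript models were used here, so which start each stretch belongs to was not tested.

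KRT18 (chr12:53342526-53346737, plus strand) had the pattern in compact form. Its 6 marked nucleosomes at chr12:53343102-53344356, 0.646 to 1.76 kb inside the gene, all carried H3K4me3, and 5 of them were trivalent. A further 2 nucleosomes with H3K27ac alone lay 1.82 and 1.94 kb upstream.

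KRT19 (chr17:39679869-39684641, minus strand) differed in make-up. Its 6 marked nucleosomes at chr17:39683392-39685066 held H3K4me3 at 5 positions, 4 of them with that mark alone, H3K9ac at 1 and H3K27ac at 1, and none was trivalent. Of 418 named loci with their own coordinates and an FPKM of at least 100, 42 likewise had no trivalent nucleosome within 2 kb of the TSS, and the median was 4. Within 10 kb, 20 of them (4.78%) had none. The nearest trivalent nucleosome to the locus was 161 kb away.

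KRT23 (chr17:39078919-39094708, minus strand) had 10 marked nucleosomes at chr17:39092087-39093891, from 0.887 to 2.55 kb inside the gene. Of these 7 carried H3K4me3, 4 of them alone, and 2 were trivalent. KRT23 had an FPKM of 9.08 and KRT19 one of 110. Within 2 kb of the TSS KRT23 had 7 marked nucleosomes, 4 with H3K4me3, and KRT19 6 and 5. At the KRT10 and TMEM99 locus, 7 marked nucleosomes, 4 of them trivalent, lay at chr17:38974472-38975971, the lower end of the shared row. That is 16.6 to 18.0 kb from the upper end of the row. The shared row gives no start of KRT10 alone, so their distance from that start is not known. Whether the marked nucleosomes belong to either gene cannot be told apart from these coordinates.

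KRTAP3-1 (chr17:39164774-39165366, minus strand), the 1 expressed hair matrix gene, had H3K27ac on 5 nucleosomes at chr17:39164977-39166341, from -0.905 kb (upstream) to 0.32 kb relative to the listed TSS. None carried H3K4me3 or H3K9ac, and it was the only 1 of the 5 loci without H3K4me3 within 2 kb of the TSS.

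Low-level keratins had little at their starts. No mark was near KRT80, whose window held 233 positions. At KRT7 the only mark was 1 H3K27me3 nucleosome 0.668 kb inside the gene, and at KRT81 1 H3K27me3 nucleosome lay at the start itself. KRT15, which lies next to KRT19, had 6 marked nucleosomes nearby, but these are the KRT19 ones, 5.09 to 6.62 kb upstream of KRT15. KRT17 and KRT42P had none.

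**Figure D3:**
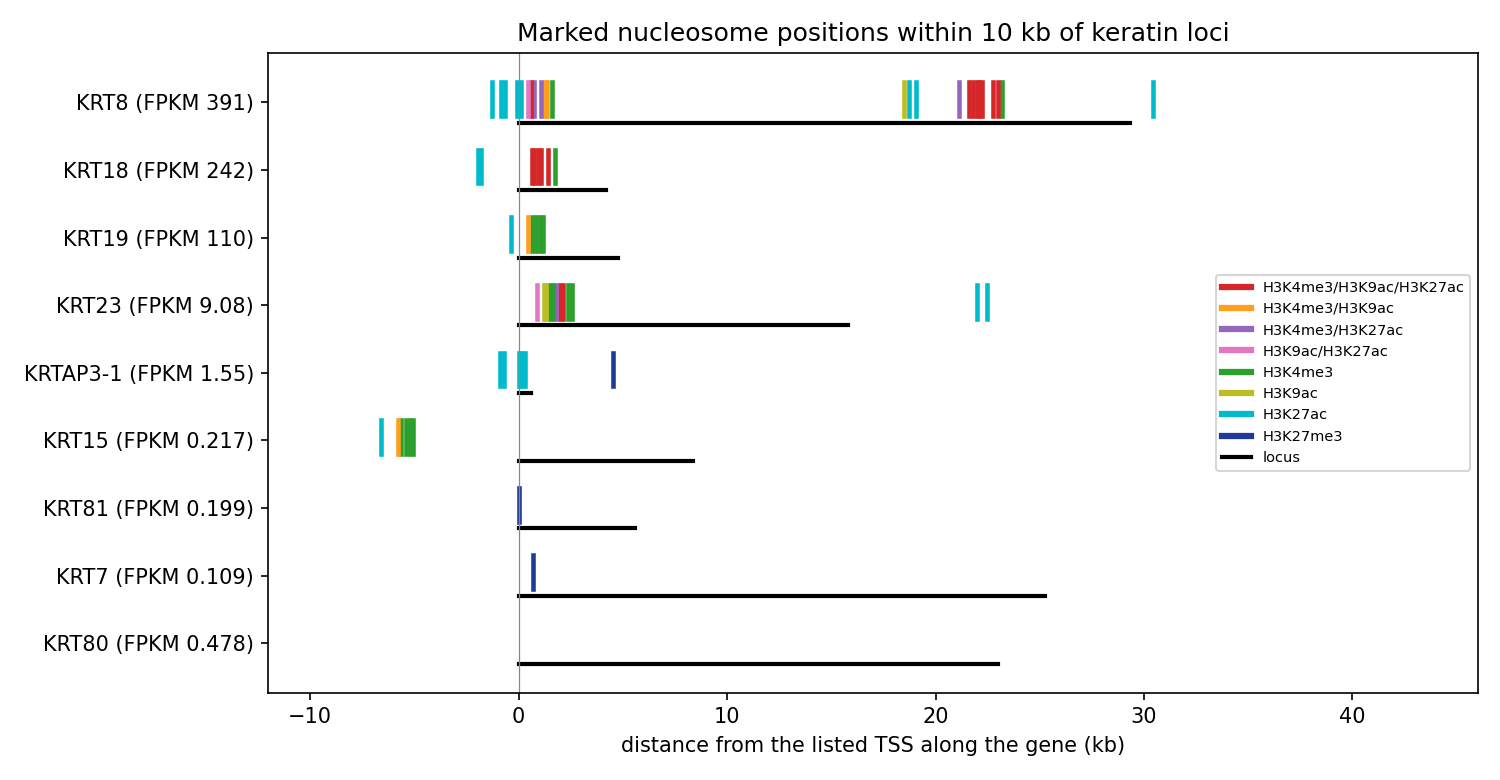
Marked nucleosome positions (coloured bars, by combination of marks) within 10 kb of 9 keratin loci, at their distance in kb from the listed TSS along the gene (x axis), with each locus as a black line and its mean FPKM beside the name. Red trivalent nucleosomes appear at KRT8 (mostly 21.1 to 23.2 kb inside), KRT18 and KRT23, while KRT19 shows mostly H3K4me3 alone, KRTAP3-1 5 positions with H3K27ac alone and 1 with H3K27me3, and KRT80 no mark.

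Of the 112 silent loci with their own coordinates, 12 had an activation mark nearby, 3 of them H3K4me3 and 8 H3K27ac. KRT39, a hair keratin with an FPKM of 0.0210 and 0.0491, had the longest run, 10 nucleosomes carrying H3K27ac alone at chr17:39112030-39115051, over the end of the gene that lies away from its TSS. Another 7 nucleosomes with H3K27ac alone, at chr17:39214432-39216671, lay between KRTAP2-2 and KRTAP2-4, both at 0, around the uncharacterised transcript LOC730755 (0.179 and 0.0705). Neither run held H3K4me3.

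KRTAP5-7, listed at 0 in both runs, was the 1 silent locus with trivalent nucleosomes at its start, 2 of 3 marked positions at chr11:71238312-71238876. A stretch of 10 marked nucleosomes followed at chr11:71244972-71247141, 9 with H3K27ac and 5 with H3K9ac, which ended about 2 kb before the start of KRTAP5-8, also at 0. KRT222, at 0, was near 7 marked nucleosomes, 5 of them trivalent, but these lay 16.4 to 17.8 kb from its TSS beyond its far end, inside SMARCE1, a chromatin remodelling gene with an FPKM of 48.8. KRTAP3-2 was near 4 of the 5 KRTAP3-1 nucleosomes, and KRTAP5-9, KRTAP4-9, KRTAP4-11 and KRTAP4-12 each had 1 H3K9ac nucleosome nearby. A further KRT23 row without a strand, at 0, was near 2 H3K27ac nucleosomes.

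The shared rows account for most of the other counts. The 5 KRTAP5 rows on the short arm of chromosome 11 are all given the coordinates chr11:1490685-1785501, together with MOB2, DUSP8 and CTSD, cathepsin D, whose FPKM was 142. That window held 56 nucleosomes with an activation mark and 9 trivalent ones. The 16 KRTAP10 and KRTAP12 rows share chr21:45904887-46131495 with C21orf29 and C21orf90 (FPKM 6.29), where 36 nucleosomes had an activation mark and 14 were trivalent. In both places the marks of the KRTAP genes and of their neighbours cannot be told apart. Without shared rows the loci with an activation mark fell to 18 of 123.

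Genomic position ordered the loci into clusters. The type II cluster of chromosome 12 spanned 784 kb (chr12:52562780-53346737) with 27 loci and 4151 nucleosome positions. KRT8 and KRT18, the 2 expressed loci, lie together at its upper end. Of the other loci, all but KRT80 lay in a tract of 670 kb from KRT7 to KRT78 with no activation mark at any of 3554 positions. It held 24 loci, 22 of them silent, with KRT81 highest at 0.199, and only 8 nucleosomes with H3K27me3 and 4 with H3K9me3. Tracts at least as long hold 28.6% of the nucleosome positions of the genome, so the length was not rare. On either side stood active genes, C12orf44 (FPKM 23.2) below and EIF4B, a translation initiation factor (163), above.

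The type I cluster of chromosome 17 spanned 985 kb (chr17:38811387-39796451) with 58 loci and 5310 positions, and its 4 expressed loci were scattered. KRT10, KRT23, KRTAP3-1 and KRT19 stood apart with silent loci between them. The tract from KRTAP4-11 to KRT15 ran 411 kb without an activation mark, over 27 loci of which 26 were silent. The next was that from KRT222 to KRT28, with 170 kb and 6 silent loci. Tracts at least as long hold 40.5% and 59.7% of the positions of the genome, so neither length was rare. H3K27me3 occurred at 12 positions of the cluster, all 12 without another such position within 500 bp (83.3% over the genome). Of the loci with their own coordinates, 15 had 1 nearby, 14 of them silent. Silent loci made up 51 of the 58 loci of the cluster, so the silent share of the 15 was close to that of the cluster. H3K27me3 was near 31.2% of named loci and 42.3% of silent named loci with their own coordinates. SMARCE1 (48.8) below and EIF1 (268), both housekeeping genes, closed the cluster.

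The KRTAP cluster of chromosome 21, from KRTAP24-1 to KRTAP19-8 (chr21:31653627-32410795), was the most uniform. All 33 loci were listed at 0 in both runs. None of its 3771 positions carried an activation mark, which allows a share of up to 0.0796% (3 counts), and the tract without one reached 2183 kb, well beyond the cluster. Tracts at least as long hold 5.70% of the positions of the genome. Its neighbours were low too, CLDN8 at 0 and TIAM1 at 0.0339.

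H3K9me3 lay on 39 positions of this cluster, or 1.03% (exact 95% interval 0.736 to 1.41), against 0.243% of the genome, a ratio of 4.26. H3K27me3 lay on 1 position, or 0.0265% (0.000671 to 0.148), against 0.185%. The type I and type II clusters had the opposite order, with H3K9me3 at 0.113% (0.0415 to 0.246) and 0.0964% (0.0263 to 0.247) and H3K27me3 at 0.226% (0.117 to 0.394) and 0.193% (0.0832 to 0.379). These shares rest on 6 and 4 positions with H3K9me3 and on 12 and 8 with H3K27me3. The intervals of the marks overlap in both clusters, so their order there is uncertain. Of the 33 chromosome 21 loci, 21 had H3K9me3 nearby. KRTAP6-1 had most with 5 positions, 1 of them 0.117 kb inside its start, followed by KRTAP6-2 and KRTAP22-1 with 4 each. Of the 39 positions, 28 (71.8%) had no other H3K9me3 position within 500 bp, against 83.4% over the genome, and the other 11 lay in small groups. With 1 H3K9me3 library, whether a second one would give the same positions was not tested.

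**Figure D4:**
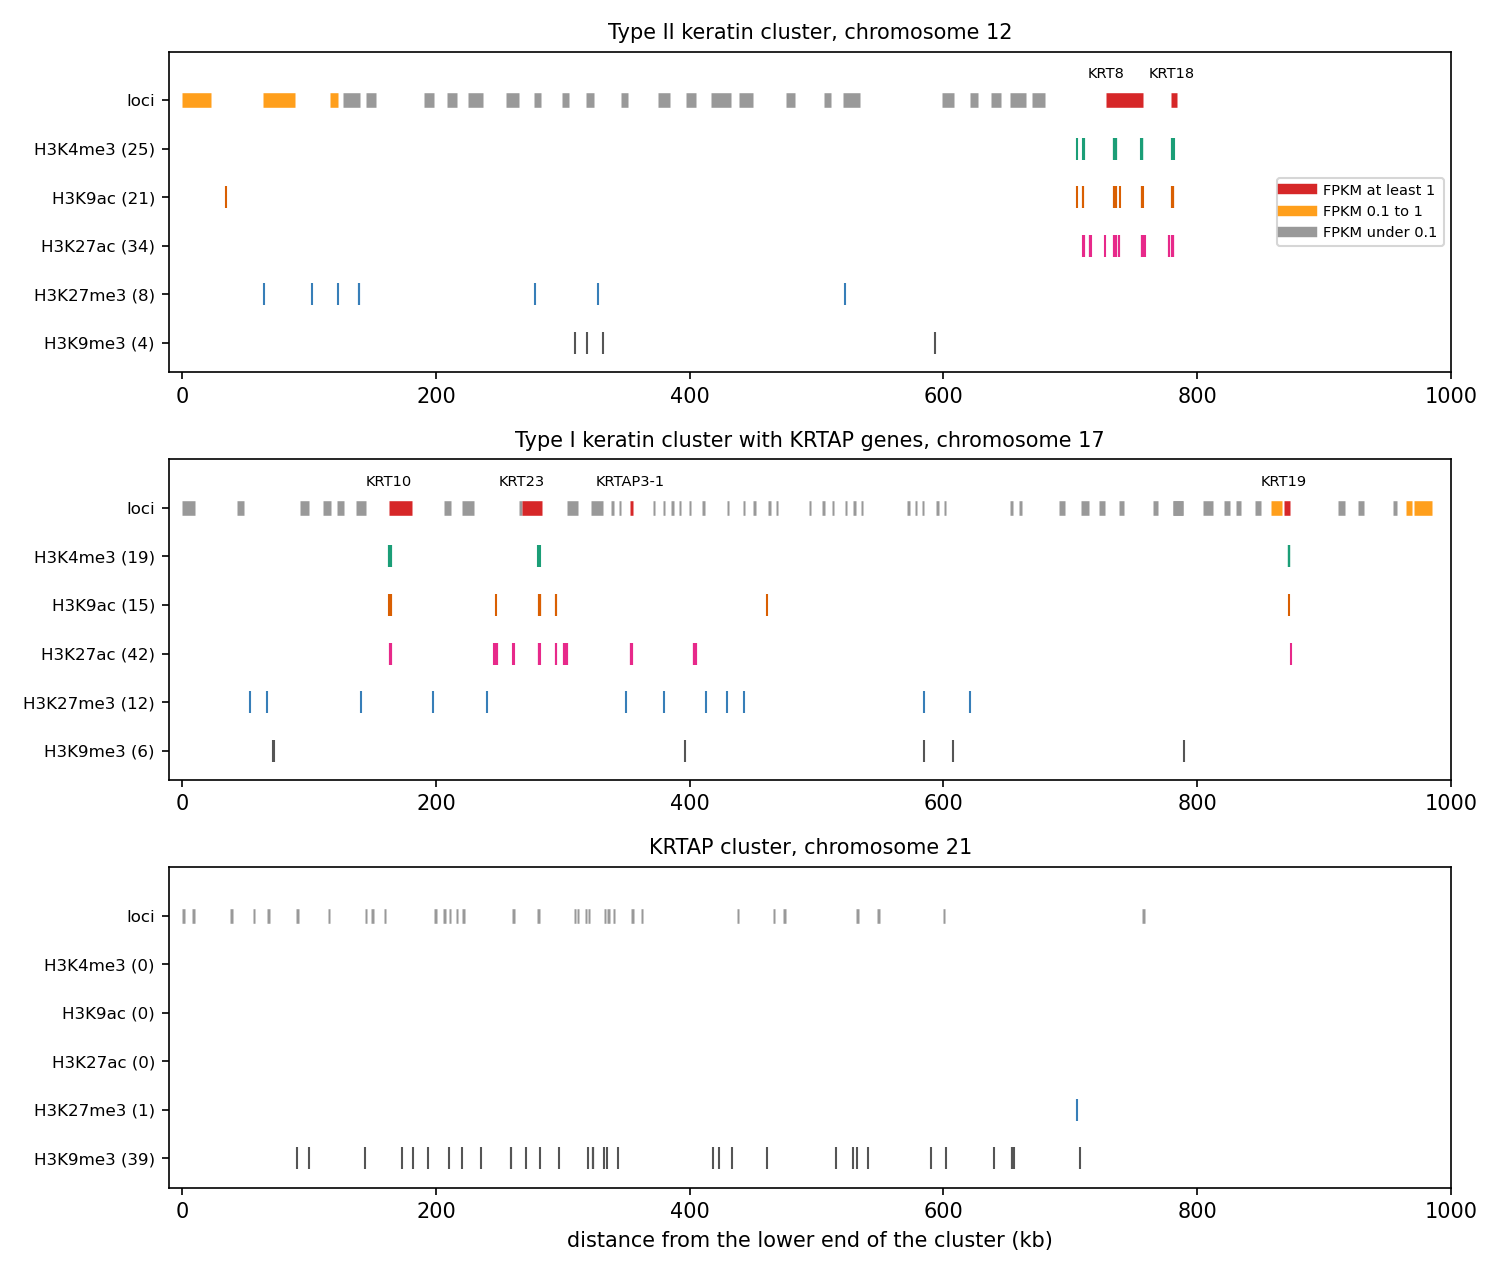
Loci (top row of each panel, coloured by FPKM) and marked nucleosome positions (1 row per mark, with the number of positions in brackets) along the 3 large clusters, in kb from the lower end of each (x axis). Activation marks gather at KRT8 and KRT18 and at a few places of the type I cluster, and the chromosome 21 panel shows no activation mark and 39 H3K9me3 positions.

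Over all positions near the 6 expressed loci, H3K4me3 lay on 3.87% (2.78 to 5.23), H3K9ac on 2.71% (1.81 to 3.89) and H3K27ac on 4.16% (3.03 to 5.56). Near the silent loci with their own coordinates these were 0.106%, 0.191% and 0.445%. Near all silent named loci with their own coordinates they were 0.281%, 0.227% and 0.215%. The interval of the silent keratin loci lay under that share for H3K4me3 (0.0508 to 0.195), held it for H3K9ac (0.113 to 0.301) and lay above it for H3K27ac (0.321 to 0.6004). Marked positions come in runs and are not independent, so these intervals are too narrow to establish a difference. Counted by loci, H3K27ac was near 8 of 112 silent keratin loci (7.14%), against 17.0% of such silent named loci. The windows of these loci are unlike, since their median lengths were 1.08 kb and 11.2 kb. H3K27ac was not counted in equal windows for silent loci. With the shared rows included, the silent keratin loci had 0.435%, 0.701% and 0.862%, against 0.439%, 0.373% and 0.419% for all silent named loci, so the H3K4me3 difference was not seen in that wider set. The surroundings of KRT39, KRTAP2-2, KRTAP2-4 and KRTAP5-7 held the greater part of the H3K27ac near silent keratin loci with their own coordinates. The spacing of nucleosomes gave no such contrast. The median distance between neighbouring positions was 175 bp in the type II, 172 bp in the type I and 180 bp in the chromosome 21 cluster, against 180 bp over the genome.

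**Figure D5:**
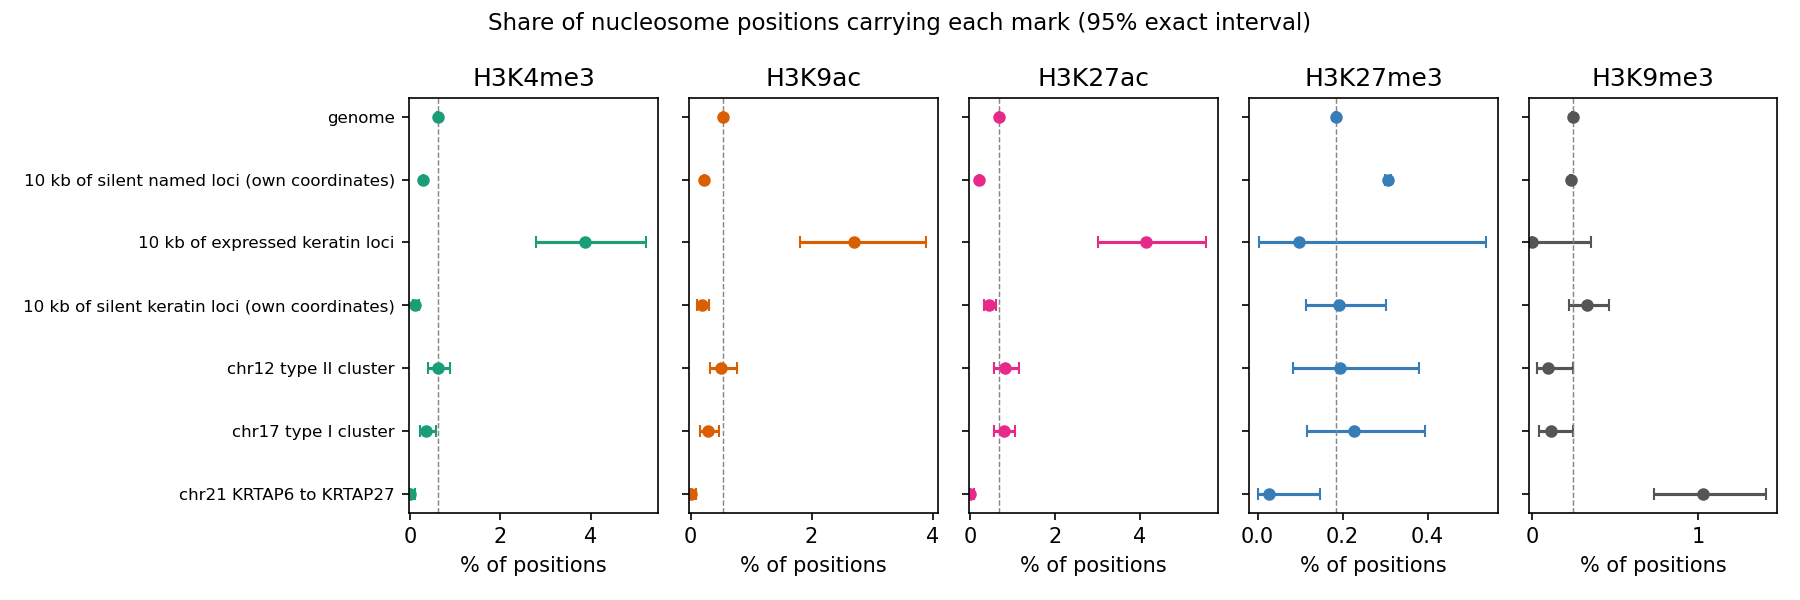
Percentage of nucleosome positions carrying each mark (x axis, 1 panel per mark, with its own scale) for the genome, the surroundings of silent named loci with their own coordinates, of expressed and of silent keratin loci, and the 3 large clusters, with exact 95% intervals and the genome value as a dashed line. The expressed keratin loci stand to the right in the 3 activation marks, and the chromosome 21 cluster in H3K9me3 at 1.03%.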

How the data were processed

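Per the labels and the study's methods, the ChIP-Seq and nucleosome reads were aligned with BWA to hg19, and the authors called marked nucleosomes by joining each ChIP-Seq library to the nucleosome map. The deposited peak lists give nucleosome positions of 140 bp without a score. Each peak was given to the nucleosome position it overlapped most, and all 319086 matched. RNA-Seq reads were aligned by the authors with TopHat2 2.1.0, and the deposited FPKM values, in 2 columns read as runs of 1 sample, were averaged here. Both the unit and this reading come from the layout and header of the table. The deposited lists give no reads per value. Positions were counted by their midpoint with Python 3.11.15 and pandas 2.3.3, and exact binomial intervals came from scipy 1.17.1. The counting was tested on simulated data. Strand was inferred from the order of locus numbers and matched RefSeq for 107 of 108 keratin loci. Clusters are runs of loci with gaps under 1 Mb, and stretches have gaps of at most 1 kb. Promoter sequences are from RefSeq (GRCh38.p14), another build than hg19, and no coordinate was carried between them.

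With 1 sample per assay no test was made. The loci and lists were chosen with earlier results of these data known. Named in the text are the loci from an FPKM of 0.1, the 3 with most positions of each mark and the simple epithelial keratins. The 2 highest of each class with none above the limit and the neighbours of the 3 large clusters are named too. KRT31, KRTAP8-1 and the silent loci with an activation mark were named after their values were seen. The alternatives changed the expression limits, the run, the window, the peaks and the set of loci.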

Additional observations from a re-analysis of the deposited data

How the results depend on the processing

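No paired analysis was possible because each assay had 1 sample. Of the shares recomputed under other settings, 29 stayed within the exact interval of the share reported and 17 left it. The share of expressed loci rose from 4.08% to 8.84% from an FPKM of 0.1, and the silent share from 91.2% to 95.9% under an FPKM of 1. Activation marks were near 14.8% in place of 27.2% of loci when rows with shared coordinates or several symbols were left out, and near 36.2% of loci of at least 1 kb. H3K27me3 went from 30.6% to 21.1% inside the locus alone, 21.8% within 2 kb, 40.1% within 20 kb, 15.6% for peaks with another of the mark within 500 bp and 19.7% for rows with their own coordinates. H3K9me3 went from 32.7% to 16.3%, 21.1% and 42.9% at the same windows, 2.72% for peaks with a neighbour, 24.6% for rows with their own coordinates and 22.3% for loci of at least 1 kb. Without the chromosome 21 KRTAP6 to KRTAP27 cluster, an alternative chosen after seeing the data, H3K27me3 was near 39.5% and H3K9me3 near 23.7% of loci. Over all named loci H3K27me3 went from 31.2% to 21.5%, 23.5% and 39.5% at those windows and to 6.54% for peaks with a neighbour (most keratin rows kept there share bundled coordinates), and H3K9me3 from 31.9% to 25.5%, 26.7% and 38.6% and to 3.98%. H3K9me3 was therefore near fewer keratin loci than named loci at 0 and 2 kb and near more at 20 kb. These windows are added to loci of unlike length, the keratin loci being shorter. Within 10 kb of the TSS, where windows are equal, the mark was near 23.8% of keratin loci and 10.3% of named loci. Of those 29 keratin loci, 21 were in the chromosome 21 cluster. The median number of trivalent nucleosomes near expressed loci was between 2 and 4. One library per mark limits all counts, and the lists give no depth per position.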
